A study of Mus musculus with 3 samples.

Results

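The genes described here encode receptors for prolactin, leptin, growth hormone, insulin, leukemia inhibitory factor and ciliary neurotrophic factor, and SOCS proteins that switch such receptors off. They were taken by name: every non-control probe whose gene name in the scanner files was *Prlr*, *Lepr*, *Ghr*, *Insr*, *Lifr*, *Cntfr*, *Socs2*, *Socs3* or *Cish*. This gave 9 genes with 20 probes, of 22349 gene symbols and 41174 probes on the array. RNA came from the choroid plexus epithelium (CPE), the cell layer of the brain ventricles that secretes cerebrospinal fluid, of 3 healthy C57BL/6 mice aged 18 to 21 weeks. CPE cells of the lateral ventricles were cut from stained brain cryosections by laser dissection and their mRNA was amplified. Each mouse was hybridised, in red (Cy5), to its own Agilent 2-colour array, and each array carried the same reference in green (Cy3): RNA of the eye, from the choroid and the retinal pigment epithelium (RPE) of wild type C57BL/6 mice. The dyes were not swapped, so a preference of a probe for a dye stays in its ratio, and the number of arrays limits the precision.

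Prolactin, leptin and growth hormone bind receptors of the cytokine family, which have no kinase of their own and signal through JAK kinases and STAT transcription factors. STATs enter the nucleus and switch on, among others, the SOCS genes and *Cish*, whose proteins bind the activated receptor or JAK and close the loop. The choroid plexus is known for binding prolactin and leptin from the blood and has been discussed as a route of both hormones into the cerebrospinal fluid.

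The sequences printed here are the RefSeq start regions (GRCm38.p6, from 250 bases before to 50 bases after the start base) of *Cish* and *Socs3*, shown because both genes are feedback inhibitors and their probes differed in ratio. Capitals mark TTCNNNGAA, the palindrome that STAT proteins bind, which reads the same on both strands. The *Cish* region is chr9:107296409-107296708 on the + strand and holds 2 copies, TTCCTGGAA at the start base (distance 0) and TTCTTGGAA, which begins 11 bases downstream. The *Socs3* region is chr11:117969317-117969616 on the - strand and holds 1 copy, TTCTTAGAA, at position -154 from the start base.
Cish: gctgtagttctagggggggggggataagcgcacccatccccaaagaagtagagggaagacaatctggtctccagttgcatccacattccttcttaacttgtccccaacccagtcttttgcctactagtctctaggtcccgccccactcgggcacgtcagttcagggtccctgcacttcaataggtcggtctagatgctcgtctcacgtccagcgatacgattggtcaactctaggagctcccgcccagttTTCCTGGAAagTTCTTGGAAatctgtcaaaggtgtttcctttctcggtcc
Socs3: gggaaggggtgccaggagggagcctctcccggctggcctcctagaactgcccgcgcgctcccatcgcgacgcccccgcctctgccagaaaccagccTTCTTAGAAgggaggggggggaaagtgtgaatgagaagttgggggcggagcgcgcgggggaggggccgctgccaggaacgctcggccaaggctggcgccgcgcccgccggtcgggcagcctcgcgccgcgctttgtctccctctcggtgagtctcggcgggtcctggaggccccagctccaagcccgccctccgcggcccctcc
Of 32851 RefSeq start regions of this length, 2726 (8.3%) held at least 1 such palindrome and 150 (0.457%) at least 2. *Prlr* had 1 in 1 of its 3 start regions, at -110, and the start regions given for *Lepr*, *Ghr*, *Lifr* and *Cntfr* held no copy in this window. *Socs2* and *Insr* had no entry. A match is a description of the letters and was not tested as a binding site.

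*Prlr* was the gene of the group with the highest ratio of CPE over reference, followed by *Lepr*, *Cish*, *Cntfr* and *Socs2*. Ratios are log2 values after background correction and loess normalization within each array, and each is given for mouse 1, 2 and 3 in this order. A probe was called higher or lower at a limma adjusted p under 0.05 with at least a 2-fold change. Of the 20 probes, 18 were bright enough to be tested, 8 probes of 5 genes were higher in CPE, and 10 were not called. Over all 25840 tested probes, 17.3% were called, 7.09% as higher and 10.2% as lower. No probe of the 9 genes was lower by limma, and 1 was lower at an unadjusted p under 0.05. All 8 called probes had a positive ratio in each mouse. The median log2 ratio was 0.68 over the 18 tested probes and -0.04 over all tested probes. Epithelium was compared with a mixed tissue, so fewer cells of a type and less RNA per cell cannot be told apart in any of these ratios.

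**Figure D1:**
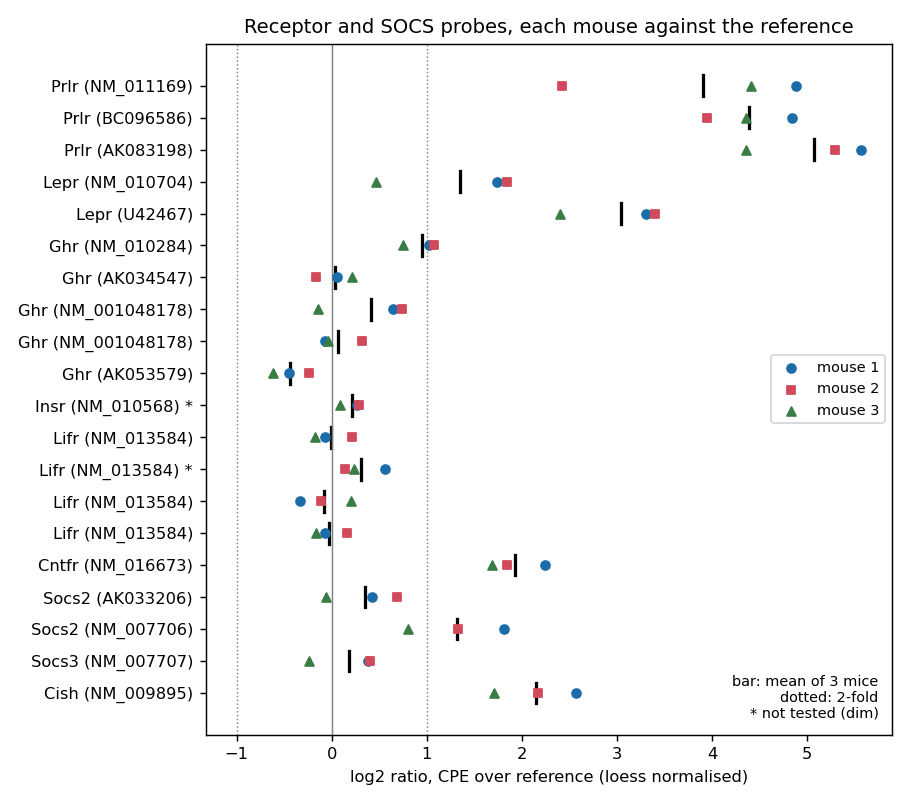
Log2 ratio of CPE over reference (x axis) for all 20 probes, with 1 point per mouse, a bar at the mean, and dotted lines at a 2-fold change. Asterisks mark the probes too dim to be tested. The 3 *Prlr* probes lie between 2.42 and 5.57 in every mouse, whereas the *Lifr* probes lie around 0.

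*Prlr*, the prolactin receptor, was represented by 3 probes on chromosome 15 (build mm8, + strand), and all 3 were higher in CPE. The probe of AK083198 (10281517 to 10281576) had log2 ratios of 5.57, 5.29 and 4.36, a mean of 5.07 ± 0.24 (SE, n = 3), which is 33.7-fold (limma adjusted p = 1.16e-05). It ranked number 3 of the 25840 tested probes by ratio. By the scanner software's ratio its mean was 6.93. Its signal in the CPE channel was 9343, 5095 and 5873 scanner units against 133, 134 and 277 in the reference channel of the same arrays. The dyes were not scaled to each other in these raw signals, so a gap between them does not by itself show a higher level. The probe of BC096586 (10277979 to 10278038), the brightest of the gene, had ratios of 4.85, 3.95 and 4.36 with a mean of 4.38 ± 0.20 (SE, n = 3, limma adjusted p = 1.05e-05), and ranked number 11. Its CPE signals were 26237, 8676 and 14166 and its reference signals 442, 420 and 500. In raw intensity the CPE signals spanned 3.02-fold and the reference signals 1.19-fold, and the raw span of CPE also holds differences between arrays. After normalization between arrays, the log2 CPE levels of this probe were 14.50, 13.28 and 13.79.

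The probe of NM_011169 (10270599 to 10270658), the most 5′ of the 3 *Prlr* probes, stood apart in mouse 2. Its ratios were 4.89, 2.42 and 4.41, with a mean of 3.90 ± 0.42 (moderated SE, n = 3, limma adjusted p = 0.000377). The SD of the 3 ratios was 1.31. Its raw CPE signals were 18735, 873 and 11225, a 21.5-fold span, and its raw reference signals 329, 193 and 418. After normalization between arrays, its log2 CPE levels were 14.03, 10.26 and 13.41. In mouse 2 it lay at percentile 87.4 of all probes in the CPE channel, against 98.96 in mouse 1 and 98.6 in mouse 3. Without mouse 2 the mean ratio was 4.65, and the probe was called with any 1 mouse left out.

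**Figure D2:**
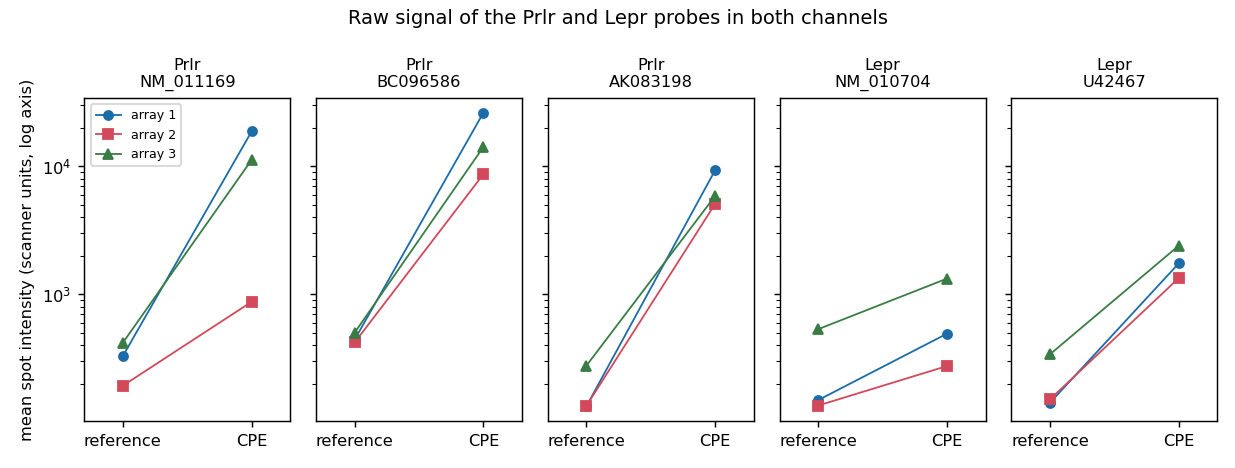
Mean spot intensity in scanner units (log axis) in the reference and the CPE channel for the *Prlr* and *Lepr* probes, with lines joining the 2 channels of 1 array. In these raw signals, with the dyes not scaled to each other, every line rises from reference to CPE. The probe of NM_011169 in mouse 2 rises least among the *Prlr* probes, from 193 to 873.

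*Lepr*, the leptin receptor, had 2 probes on the + strand of chromosome 4, which were both higher in CPE but by different amounts. The probe of U42467 (101310811 to 101310870) had log2 ratios of 3.31, 3.40 and 2.40 and a mean of 3.04 ± 0.22 (SE, n = 3), 8.21-fold by this normalization (limma adjusted p = 6.61e-05). Its raw CPE signals were 1742, 1338 and 2397 and its raw reference signals 142, 151 and 339. The probe of NM_010704, whose coordinates span 101287267 to 101288768, had ratios of 1.73, 1.84 and 0.46 and a mean of 1.34 ± 0.27 (SE, n = 3, limma adjusted p = 0.00677). Mouse 3 was the lowest for both probes. The ratio of the 3′ probe exceeded that of the 5′ probe by 1.58, 1.57 and 1.93 on the log2 scale in the 3 mice, a mean difference of 1.69 ± 0.21 (SD, n = 3). The 5′ probe was well above background in the reference on 1 of 3 arrays, so this gap rests on a dim reference. By the ratio of the scanner software, which removes background in another way, the probe of NM_010704 had 3.67 and that of U42467 4.23, and the probes lay closer together. The probe of NM_010704 was also under the threshold in a test against a 2-fold change (limma treat, adjusted p = 1).

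*Ghr*, the growth hormone receptor, had 5 probes on the - strand of chromosome 15, and none of them passed both parts of the threshold. The most 3′ and brightest probe, of NM_010284 (3268107 to 3268166), had ratios of 1.02, 1.07 and 0.75 and a mean of 0.95 ± 0.16 (SE, n = 3, limma adjusted p = 0.00283), just under 2-fold. It passed 2-fold without mouse 3 (1.05), with median centring in place of loess (1.36) and with the scanner ratio (1.10). The other *Ghr* probes had mean log2 ratios of 0.035, 0.41, 0.069 and -0.44 from the 3′ to the 5′ end, with limma adjusted p from 0.0625 to 0.884. The most 5′ probe, of AK053579 (3295320 to 3295379), was below 0 in every mouse (-0.45, -0.24 and -0.61) and is the probe with an unadjusted p under 0.05. The ratio of the most 3′ probe exceeded that of the most 5′ probe by 1.48, 1.31 and 1.36 in the 3 mice. The SD of either probe between mice was at most 0.19.

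Of the interleukin 6 type receptors, *Cntfr* was higher in CPE and *Lifr* was not called. *Cntfr*, which encodes the ligand-binding chain of the ciliary neurotrophic factor receptor, had 1 probe (chromosome 4, 41846246 to 41846305, - strand), with ratios of 2.24, 1.85 and 1.69 and a mean of 1.93 ± 0.17 (SE, n = 3), 3.80-fold (limma adjusted p = 0.000154). Its raw CPE signals were 1743, 853 and 1743 and its raw reference signals 250, 256 and 368. *Lifr*, the leukemia inhibitory factor receptor, which also forms part of the CNTF receptor, had 4 probes on chromosome 15 (7131976 to 7138424, + strand). The 3 tested *Lifr* probes had mean ratios from -0.08 to -0.01, with 95% intervals that together reached from -0.47 to 0.36. The fourth, of 7132889 to 7132948, was not tested, since it was well above background in CPE on 2 arrays and in the reference on 1, and its ratios were 0.56, 0.14 and 0.23. *Insr*, the insulin receptor (chromosome 8, 3159473 to 3159532, - strand), was well above background in both channels on the array of mouse 3 alone. Its ratios of 0.26, 0.28 and 0.09 were therefore not tested.

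Of the feedback inhibitors, *Cish* and *Socs2* were higher in CPE and *Socs3* was not called. *Cish*, a SOCS protein known to bind cytokine receptors and induced through STAT5, had 1 probe (chromosome 9, 107159966 to 107160025, + strand). Its log2 ratios were 2.57, 2.17 and 1.71 with a mean of 2.15 ± 0.20 (SE, n = 3), 4.43-fold (limma adjusted p = 0.000174). Its raw signals were 10392, 6645 and 6058 in CPE against 837, 1004 and 1088 in the reference. *Socs2*, the main brake on growth hormone signaling, had 2 probes on the - strand of chromosome 10 that differed. The probe of NM_007706 (94842120 to 94842179) had ratios of 1.81, 1.33 and 0.80 and a mean of 1.31 ± 0.21 (SE, n = 3, limma adjusted p = 0.0025), and it did not pass the test against a 2-fold change (limma treat, adjusted p = 0.828). The probe of AK033206 (94817801 to 94817860) had ratios of 0.42, 0.69 and -0.06 and was not called (mean 0.35, limma adjusted p = 0.18). *Socs3*, an inhibitor of leptin and interleukin 6 type receptors (chromosome 11, 117782256 to 117782315, - strand), had ratios of 0.38, 0.40 and -0.24 and a mean of 0.18 ± 0.18 (SE, n = 3, limma adjusted p = 0.485). Its 95% interval, from -0.25 to 0.60, lay within 2-fold in either direction. The raw signals of *Socs3* were 1109, 965 and 1130 in CPE and 512, 631 and 672 in the reference. The dyes were not scaled to each other in them, so their gap does not show a higher level.

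Set in order by the ratio of the brightest probe, the genes ran *Prlr* (4.38), *Lepr* (3.04), *Cish* (2.15), *Cntfr* (1.93), *Socs2* (1.31), *Ghr* (0.95) and *Socs3* (0.18), with the untested *Lifr* (0.31) and *Insr* (0.21) between the last 2. The 95% interval of the brightest *Prlr* probe, 3.92 to 4.85, lay above that of *Lepr*, 2.52 to 3.55. That of the *Prlr* probe of NM_011169, 2.94 to 4.87, overlapped the *Lepr* interval. From *Lepr* downward, the intervals of neighbouring tested genes overlapped at each step.

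Where a probe ranks within the CPE channel is a separate measure from its ratio, and the study's methods cut this rank into classes: very low under the 10th percentile, then low up to the 50th, moderate up to the 90th, and high beyond it. Of the 20 probes, 6 were high, 10 moderate and 4 low, against 10% of 41168 ranked probes in the high class. By its brightest probe, 4 genes were high: *Prlr* at percentile 98.98, *Cish* at 97.7, *Ghr* at 90.4 and *Lepr* at 90.2. Over all genes, 15.3% had a brightest probe in the high class. *Socs2* (89.5), *Cntfr* (87.2) and *Socs3* (83.9) were moderate, and so were the dim *Lifr* (59.2) and *Insr* (53.8) probes. *Prlr* and *Cish* were above the 90th percentile in each mouse. *Lepr* was so in mouse 2 alone, at 91.1 against 89.0 and 89.4, and was moderate without mouse 2 (89.4). *Ghr* passed in mice 2 and 3, and *Socs2* became high without mouse 3 (90.8). By its brightest probe *Ghr* thus ranked high in CPE with a ratio under 2-fold, the reference signal of that probe being at percentile 81.7. The other *Ghr* probes lay at percentiles 21.6, 70.9, 65.7 and 43.4 in CPE from the 3′ to the 5′ end, all low or moderate.

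**Figure D3:**
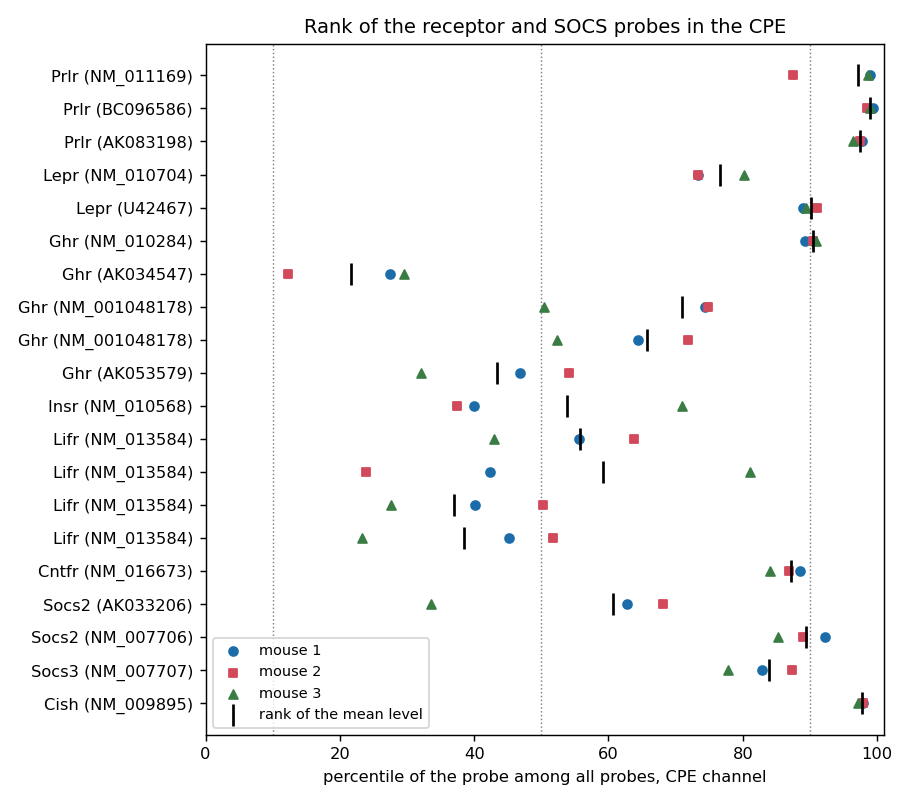
Percentile of each probe among all probes in the CPE channel (x axis), with 1 point per mouse and a bar for the rank of the mean level; dotted lines mark the class limits at 10, 50 and 90. *Prlr* and *Cish* sit near the right edge, and the *Lifr* and *Insr* probes spread widely between mice, from 23.95 to 81.02 for the untested *Lifr* probe.

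The array of mouse 3 differed from the others in its dimmest spots. The background surface that the scanner software fits through dim spots was 363 scanner units in its CPE channel against 81.2 and 82.6, while the local background around the spots, which is what was subtracted here, had medians of 57, 56 and 58. In mouse 3, 85.6% of probes were well above background in CPE against 58.5% and 46.0% on the arrays of mice 1 and 2. The untested *Lifr* and *Insr* probes read 1322 and 1005 in CPE in mouse 3, against 86.1 to 112 in mice 1 and 2. The reference, the same RNA on each array, was also brighter there. In it these probes read 600 and 497, against 107 to 138 on the other arrays. Its background surface was 236 against 113 and 112, and 84.2% of probes were well above background against 71.0% and 68.6%. Mouse 3 had the lowest ratio of the 3 mice for 13 of the 18 tested probes, among them both *Lepr* and both *Socs2* probes, *Cntfr*, *Socs3* and *Cish*. These 18 probes come from 8 genes. The same count was not made over all tested probes, so it cannot be said whether it is particular to these genes. With the background surface in place of the local background, an alternative chosen after seeing the data, the ratios of mouse 3 moved by at most 0.11 on the log2 scale. Those of mice 1 and 2 moved more, by up to 0.47 and 0.48.

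How a mouse departed from the others differed between the *Prlr* probes. These lie at different places and come from different sequence records, so place and transcript form cannot be told apart. The log2 ratio of mouse 2 differed from the mean of the other mice by -2.23 at the most 5′ probe, 10918 bases from the most 3′ one, by -0.66 at the middle probe, 3538 bases away, and by 0.32 at the most 3′ probe. Mouse 3 went the other way, from 0.76 to -1.07. Each difference is taken against the other mice, so a low value in mouse 2 by itself raises the differences of the others. At the *Lepr* probes, 22102 bases apart, mouse 3 differed from the others by -1.32 and -0.96. For *Ghr*, *Lifr* and *Socs2* the differences lay between -0.84 and 0.75. These are descriptions of 3 arrays with 1 value per mouse and probe, and no test was run on them.

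**Figure D4:**
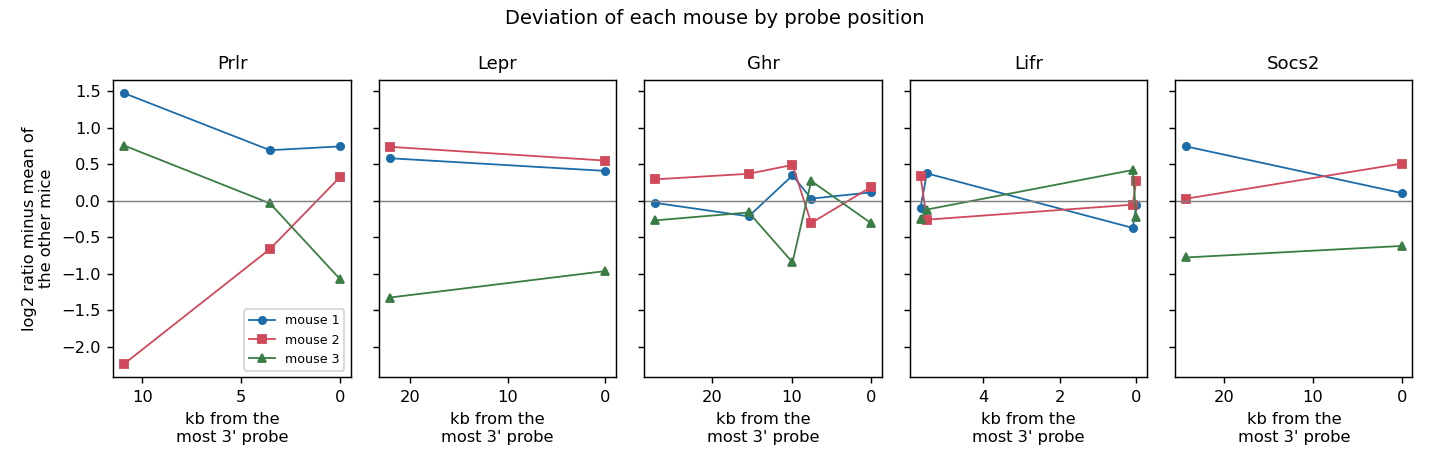
Difference between each mouse and the mean of the other mice in log2 ratio (y axis) against genomic distance in kb from the most 3′ probe of the gene (x axis), for genes with several probes. For *Prlr*, mouse 2 runs from -2.23 at the most 5′ probe to 0.32 at the most 3′ one.

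Over the 14 probes that cleared the background on every array in CPE and reference alike, the median SD of the log2 level was 0.304 between mice in CPE and 0.386 between arrays in the reference, which was 1 RNA. Which of the channels spread more depended on the normalization: the median SDs were 0.364 in CPE and 0.200 in the reference after quantile normalization, and 1.18 and 0.345 after median centring of each channel. The widest spread of a called ratio was that of the most 5′ *Prlr* probe, with an SD of 1.31 (n = 3), and the narrowest that of *Cntfr*, with 0.29 (n = 3). The median SD of the ratio over all tested probes was 0.263.

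Among 12484 genes with a symbol and a brightest probe that cleared the background on every array in CPE and in the reference, those whose 3 ratios lay nearest to the 3 of *Prlr* were *Tbc1d9*, *Igfbp2*, *Dynlrb2*, *Cyb561* and *Kcne2*, at Euclidean distances from 0.350 to 0.456. Their mean log2 ratios were between 4.17 and 4.42. Nearest to *Lepr* were *Lrrc23*, *Mycbpap*, *BC038167*, *Capsl* and *Mmp15*, at distances from 0.203 to 0.394, with mean ratios from 2.85 to 3.25. This likeness rests on 3 values a gene.

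Around these receptors, 70 further genes of the pathway were listed, of which 67 had a probe and 53 were tested by their brightest probe. In CPE, 4 were higher and 9 lower. Of all 15835 genes tested this way, 20% were called, 8.77% as higher and 11.2% as lower, and the median log2 ratio was -0.016 against -0.009 for the 53. Among 13 ligands, 5 were tested (median 0.47) and *Ins2*, one of the mouse insulin genes, was higher by 1.07 ± 0.17 (SE, n = 3, limma adjusted p = 0.00261). Its other probe, at 0.98, stayed under 2-fold. Among 11 related and shared receptors, 7 were tested (median -0.11) and *Osmr*, the oncostatin M receptor, was lower, with -1.94, -1.64 and -2.05 in the 3 mice and a mean of -1.88 ± 0.16 (SE, n = 3, limma adjusted p = 0.000134). Its other probe, well above background in CPE on 2 arrays, had -0.88 and was not called. *Il6st*, the gp130 chain that *Lifr* and *Cntfr* signal through, had a mean of -0.48 (limma adjusted p = 0.0352), under 2-fold, which became -0.016 with median centring. Its CPE signal lay at percentile 88.8.

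Of 20 kinases, STATs and adaptors, 18 were tested, with a median of 0.04. Of these, 16 were not called, where 20% of all genes tested this way were called. *Irs1*, a docking protein of the insulin receptor, was higher, by 1.05 ± 0.16 (SE, n = 3, limma adjusted p = 0.00201), and its other probe had 0.48. *Stat3*, the main STAT of leptin and gp130 receptors, was lower, with -0.71, -1.78 and -1.08 and a mean of -1.19 ± 0.22 (SE, n = 3, limma adjusted p = 0.00448). A second *Stat3* probe, well above background in CPE on 1 array, had -0.03. *Jak1* (-0.82) and *Jak2* (-0.67), the kinases tied to these receptors, had limma adjusted p of 0.0105 and 0.0156 but stayed under 2-fold. With median centring they had -0.26 and -0.54 (limma adjusted p = 0.515 and 0.146). The other *Jak1* probes had -0.67 and -0.30 and the other *Jak2* probe -0.30, all not called. *Stat5a*, one of the STATs of prolactin and growth hormone, had 0.76 (limma adjusted p = 0.0146), also under 2-fold. *Stat5b* had -0.26 (limma adjusted p = 0.362), which turned to 0.14 with median centring. The other *Stat5b* probes, each well above background in CPE on 1 array, had 0.07 (not called) and 0.13 (not tested). No probe on the array was assigned to *Irs2*, so it has no value.

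Of 14 other inhibitors, 13 were tested (median 0.14). *Grb14*, an adaptor that blocks the insulin receptor, was higher, with 2.01, 2.01 and 0.65 and a mean of 1.56 ± 0.28 (SE, n = 3, limma adjusted p = 0.00387). *Ptpn2*, a phosphatase of JAKs and STATs, was lower, at -1.21 ± 0.17 (SE, n = 3, limma adjusted p = 0.00149), and its other probe, not well above background in CPE on any array, had -0.46 and was not called. Several of these calls were close to the limit: *Ins2* (0.95) and *Irs1* (0.96) fell under 2-fold without mouse 1, *Stat3* without mouse 2 (-0.90), and *Stat3* (-0.71) and *Ptpn2* (-0.78) with median centring.

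Most tested genes listed as STAT targets were lower in CPE. Of 12, 10 were tested, 6 were lower and 1 higher, with a median of -1.85. *Cebpd*, a transcription factor of the acute phase, was the lowest, with -2.72, -2.96 and -2.41 and a mean of -2.70 ± 0.17 (SE, n = 3), 6.49-fold lower (limma adjusted p = 3.44e-05). *Igf1*, the growth factor through which growth hormone acts, was lower, at -2.35 ± 0.17 (SE, n = 3, limma adjusted p = 6.4e-05), and its other probes had -1.25, also called, and -0.30, not called. *Bcl6*, a repressor that STAT5 itself represses, had -2.08 (limma adjusted p = 0.000188), and *Fos*, an immediate early gene, -1.98 (limma adjusted p = 0.000243), though *Fos* was well above background in CPE on 2 of 3 arrays. The remaining called targets were named after their values were seen: *Ccnd1* (-1.97) and *Junb* (-1.73) were lower, and *Bcl2l1*, a survival gene, was higher (1.18), its other probes having 0.92 and 0.63, under 2-fold. *Cish* and *Socs2*, counted with the inhibitors here, are also STAT5 targets and were higher. The reference is a mixed tissue: of its stromal markers 5 of 6 and of its macrophage markers 4 of 7 were lower in CPE too, and the summed intensity of the stromal list ranged from 25151 to 33462 in CPE and from 84877 to 97176 in the reference, where *Dcn* was saturated on 2 arrays. For macrophage markers the sums were 11568 to 13453 and 39911 to 48117. The dyes were not scaled to each other in these sums, so their gaps are not ratios. By log2 ratio the medians were -1.80 for the stromal and -1.08 for the macrophage markers. The part of these cells in the targets' ratios was not tested.

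**Figure D5:**
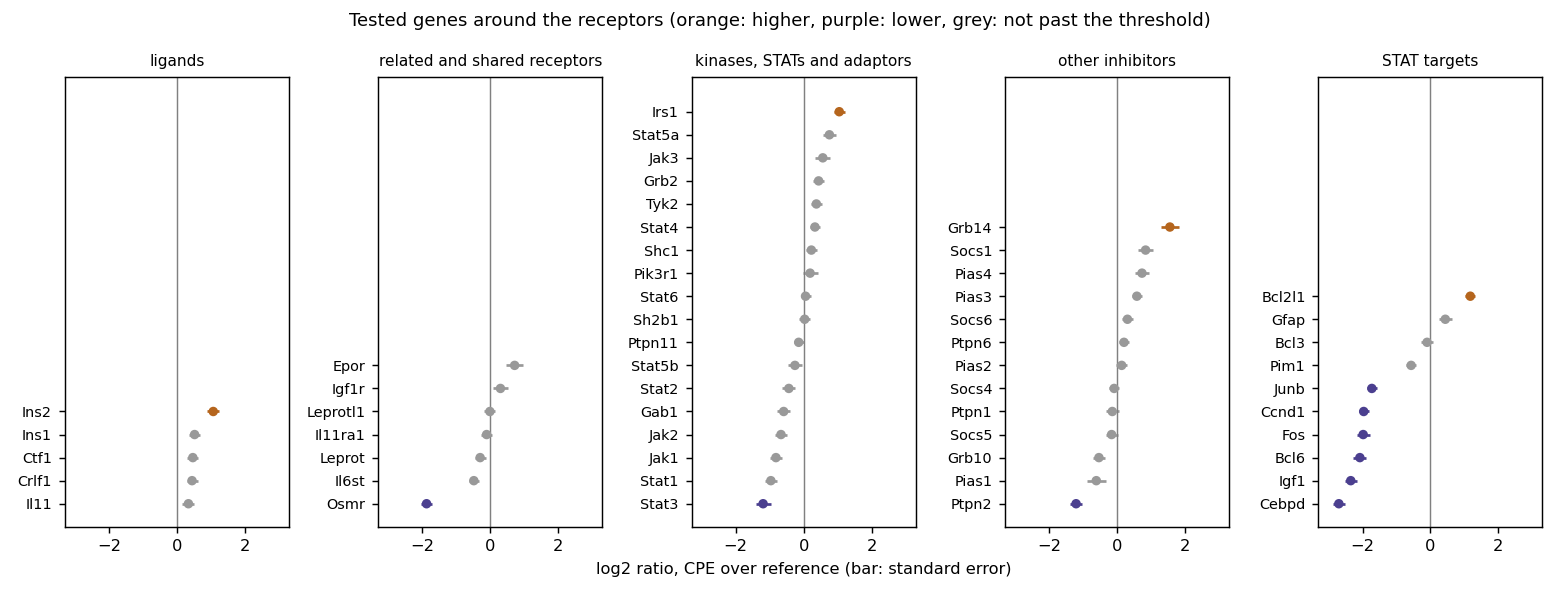
Mean log2 ratio of CPE over reference (x axis) for the tested genes of the 5 lists, with genes past the threshold in orange (higher) or purple (lower). Bars show limma's moderated standard error, which is not the spread of the 3 mice alone. The STAT targets hold 6 of the 9 lower genes, and most kinases and inhibitors lie within 1 of 0.

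The labelled tissue was checked by its markers. Of 10 choroid plexus epithelium markers 9 were on the array, all 9 well above background in CPE on every array, and 8 were higher in CPE, *Otx2* being the exception. Their summed intensity was 313703 to 319877 in CPE, where *Ttr* and *Enpp2* were saturated on all 3 arrays and *Clic6* on 1, so that these sums are lower limits, against 23423 to 29541 in the reference. Of 8 RPE and melanocyte markers 7 were lower, and all 6 photoreceptor markers were lower. *Tyr* was not well above background in CPE on any array. The other 7 RPE and melanocyte markers and all 6 photoreceptor markers were well above background in CPE on every array. The highest ranks in CPE were those of *Dct* (percentile 92.5) and *Gnat1* (93.6). The sums of the RPE list were 4964 to 8180 in CPE and 148733 to 166060 in the reference, where *Dct* was saturated on all 3 arrays, so that the reference sums are lower limits. All 7 endothelial markers differed by less than 2-fold and were well above background in CPE, with a median log2 ratio of -0.11. Their sums were 14051 to 20780 in CPE and 8775 to 11040 in the reference. All these sums lack background correction and scaling of the dyes to each other, so they do not give a ratio between the tissues. Among neuron markers 4 of 6 were lower, among astrocyte markers 2 of 5 were lower and 1 was higher, among oligodendrocyte markers 1 of 4 tested was higher, and both red blood cell markers on the array were lower. The part of vascular cells left in the dissected tissue in the receptors' ratios was not tested.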

How the data were processed

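The authors read the arrays with Feature Extraction 9.5.3.1, and the deposited scanner tables hold the spot intensity and local background of both channels on a linear scale, flags, and the log10 ratio of the processed signals. The deposited log2 table holds CPE levels that the authors normalized between arrays with Aquantile in R 2.14.0, and it was used as an alternative. Here R 4.3.3 and limma 3.58.1 were used: normexp with an offset of 50 on mean signal and median local background, loess within arrays, control and outlier spots left out, and spots of 1 probe averaged. Tested probes had a value on all 3 arrays and were well above background on all 3 in at least 1 channel. An intercept model with eBayes set the mean ratio against 0, with Benjamini-Hochberg adjustment over all tested probes. The reference is 1 RNA, so its biological spread is not in the error. Ranks used mean red intensities without background correction, after Aquantile. A gene's value is that of its brightest probe over both channels. Strand was read from the order of the mm8 probe coordinates. No mm8 annotation was used, so exons are not given. Probe accessions matched the RefSeq gene table for 56.8% of probes, and the others kept the file's name. The rule for naming was every probe of the 9 genes, up to 4 called genes per list with the largest ratio, the genes a receptor needs to signal, and the 5 nearest genes to *Prlr* and *Lepr*. The genes and lists were chosen with earlier results of these data known. The scripts were tested on simulated data. Alternatives covered normalization, background, filters, array weights, a test against 2-fold and each mouse left out.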

Additional observations from a re-analysis of the deposited data

How the results depend on the processing

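Of 194 recomputed ratios of the 18 tested probes, 178 kept their direction and side of the threshold. The number of called probes, 8, ranged from 6 in the test against 2-fold to 9, and was 8 to 9 with each mouse left out. The test against 2-fold reduced the called pathway genes from 13 to 7, with 0 of the 4 higher ones left. With each mouse left out these were 12 to 16 and 3 to 6, and the lower ones 8 to 10. The 4 genes of the high class were 2 when only probes well above background in CPE, or 1 probe per gene, were ranked, since both shorten the list of dim probes below them, and 3 to 5 with each mouse left out. Median centring of each channel moved the median SD of the levels in CPE from 0.304 to 1.18 and that of the reference from 0.386 to 0.345, and quantile normalization gave 0.364 and 0.200, so that the order of the channels turned under both. Directions turned for 6 ratios, all between -0.26 and 0.069. The *Ghr* probe of AK034547 had -0.23 with median centring and with the scanner ratio, -0.056 without mouse 3 and -0.084 with the scanner's background surface, an alternative chosen after seeing the data. The more 5′ *Ghr* probe of NM_001048178 had -0.054 without mouse 2. With each mouse left out, the tested *Lifr* probes ranged from -0.12 to 0.072, from -0.22 to 0.041 and from -0.12 to 0.043, the first having 0.067 with the scanner ratio and 0.0080 with the background surface. *Stat5b* had 0.14 with median centring. The scanner ratio moved *Fos* to -3.78. Over all probes, 4462 calls with 41.1% higher became 5383 with 56.5% higher under median centring, 6761 under the scanner ratio and 1413 in the test against 2-fold, of which 32.2% were higher. No paired analysis was possible because the mice form 1 group. Dim probes limit what can be said of *Lifr* and *Insr*.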

Other observations

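The ligand genes of the 3 hormone receptors were too dim to be tested, and their values are given here after they were seen. The *Prl* probe, which encodes prolactin, was well above background in CPE on 2 of 3 arrays and in the reference on 0 of 3. Its log2 ratios were 0.02, 1.86 and 1.12 in mice 1, 2 and 3, and its CPE signal ranked at percentile 40.7. The *Lep* and *Gh* probes, for leptin and growth hormone, were each well above background on 1 array in either channel, with ratios of -0.27, -0.12 and -0.05 for *Lep* and of 0.15, 0.06 and 0.20 for *Gh*. *Socs1*, another inhibitor of JAK kinases, had ratios of 1.06, 1.27 and 0.20 and a mean of 0.84 ± 0.22 (SE, n = 3, limma adjusted p = 0.0209), under 2-fold, so that mouse 3 was again the lowest.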
